A study of Homo sapiens with 12 samples.

Results

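The insulin-like growth factor (IGF) binding protein genes IGFBP1 to IGFBP7 were followed in 12 RNA-sequencing libraries of human cholangiocarcinoma, a cancer of the bile duct epithelium. The 7 genes were taken by symbol from a count table of 60651 genes, and all 7 were found in it. EGI-1 and HUCCT1 are established cholangiocarcinoma cell lines, labelled WT, and each is a single line grown in culture. EGI-1 cells received DMSO vehicle, 0.5 μM decitabine, 200 nM talazoparib or both agents together, and HUCCT1 cells received DMSO vehicle or 1 μM decitabine. All cells were collected after 72 h, on day 3, and each of the 6 groups held 2 libraries. Decitabine inhibits DNA methyltransferases, the enzymes that methylate cytosine in CpG dinucleotides, and talazoparib inhibits the DNA repair enzyme PARP. The names of the talazoparib libraries carry a different number from the 200 nM dose of the labels, which was used here. Nothing states that the 2 libraries of a group came from separate cultures, so the p-values measure the spread between these libraries, which may be technical.

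IGF binding proteins are secreted carriers that hold IGF-I and IGF-II outside the cell. By binding the ligands they keep them from the type 1 IGF receptor, prolong their time in the circulation, or release them where proteases cut the carrier. IGFBP1 to IGFBP6 bind IGFs with high affinity, whereas IGFBP7 binds them weakly and is also known as a secreted factor of senescent and tumour cells. Hepatocytes are the main source of circulating IGFBP1, and IGFBP3 carries most of the IGF in blood.

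The EGI-1 libraries held 23139065 to 33181930 counts each, and the HUCCT1 libraries 32519985 to 34965627. Levels are given as CPM, that is counts relative to the TMM-adjusted size of the library, with factors taken over all 12 libraries, and levels of different genes were compared only after division by the length of the merged exons in kilobases. A gene was called changed when the adjusted p of edgeR's quasi-likelihood test was under 0.05 over all genes tested. The bile duct character of the lines was checked with 10 biliary and epithelial markers, among them KRT7, KRT19 and EPCAM. Their summed level was between 8341 and 9305 CPM in the 8 EGI-1 libraries and between 9522 and 16628 CPM in the 4 HUCCT1 libraries, and none was at 0 in all libraries of any group, although CFTR did not exceed 3 counts in the EGI-1 libraries outside the combination. Of the 8 hepatocyte markers, TTR was at 0 in every group and ALB did not exceed 3 counts in any library. SERPINA1, on the same list, was detected, with means of 22.9 CPM in EGI-1 vehicle and 65.0 CPM in HUCCT1 vehicle. The list summed to between 21.1 and 25.6 CPM in EGI-1 vehicle and between 52.9 and 77.9 CPM in HUCCT1 vehicle. In bulk RNA, a change in the number of cells that express a gene and a change in RNA per cell cannot be told apart.

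Most of the family lies in neighbouring pairs. On GRCh38 with the GENCODE 44 annotation, IGFBP1 (chr7:45888360-45893660, plus strand) and IGFBP3 (chr7:45912245-45921874, minus strand) stand tail to tail with 18584 bp between them. IGFBP2 (chr2:216632828-216664436, plus strand) and IGFBP5 (chr2:216672105-216695549, minus strand) are arranged in the same way, 7668 bp apart. IGFBP4 (chr17:40443450-40457725, plus strand), IGFBP6 (chr12:53097436-53102345, plus strand) and IGFBP7 (chr4:57030773-57110385, minus strand) stand without another member beside them. IGFBP3 and IGFBP7 have 5 exons and the other members 4. IGFBP5 shares 487 bp of exon with DIRC3-AS1 on the opposite strand. IGFBP7 shares 260 bp, 13.5% of its exon length, with POLR2B and 94 bp with IGFBP7-AS1, both on the opposite strand, and whether reads were counted by strand is not stated.

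Since decitabine acts on CpG methylation, the promoter windows of the members are shown with each CpG in capitals. RefSeq promoter windows of 300 bases, from 250 bases before to 50 bases after a transcription start on GRCh38.p14, were matched for 5 of the 7 members. IGFBP3 and IGFBP4 are printed as members with many CpG and IGFBP5 and IGFBP6 as members with a number below the median, each read 5′ to 3′ along its gene. The IGFBP3 window lies wholly inside the gene span given above, since GENCODE places the outermost start upstream of the RefSeq start. The windows are:
IGFBP3, chr7:45921223-45921522, minus strand: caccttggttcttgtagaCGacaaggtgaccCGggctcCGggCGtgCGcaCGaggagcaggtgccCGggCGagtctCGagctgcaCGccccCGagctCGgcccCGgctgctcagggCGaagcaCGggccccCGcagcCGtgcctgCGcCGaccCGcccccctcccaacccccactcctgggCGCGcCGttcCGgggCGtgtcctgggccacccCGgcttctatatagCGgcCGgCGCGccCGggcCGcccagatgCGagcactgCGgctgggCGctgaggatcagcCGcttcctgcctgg
IGFBP4, chr17:40443200-40443499, plus strand: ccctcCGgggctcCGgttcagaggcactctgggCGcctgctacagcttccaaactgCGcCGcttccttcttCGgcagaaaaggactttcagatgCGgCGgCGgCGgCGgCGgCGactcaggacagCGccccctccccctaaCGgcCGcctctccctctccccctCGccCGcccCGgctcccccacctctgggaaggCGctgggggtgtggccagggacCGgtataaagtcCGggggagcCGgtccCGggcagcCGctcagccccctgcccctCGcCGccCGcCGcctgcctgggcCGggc
IGFBP5, chr2:216695500-216695799, minus strand: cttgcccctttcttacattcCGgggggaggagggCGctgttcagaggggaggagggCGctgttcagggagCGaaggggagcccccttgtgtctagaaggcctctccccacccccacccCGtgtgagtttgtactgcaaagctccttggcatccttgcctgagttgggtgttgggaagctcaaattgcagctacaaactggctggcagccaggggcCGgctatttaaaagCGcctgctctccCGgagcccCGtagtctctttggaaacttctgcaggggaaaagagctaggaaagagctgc
IGFBP6, chr12:53097417-53097716, plus strand: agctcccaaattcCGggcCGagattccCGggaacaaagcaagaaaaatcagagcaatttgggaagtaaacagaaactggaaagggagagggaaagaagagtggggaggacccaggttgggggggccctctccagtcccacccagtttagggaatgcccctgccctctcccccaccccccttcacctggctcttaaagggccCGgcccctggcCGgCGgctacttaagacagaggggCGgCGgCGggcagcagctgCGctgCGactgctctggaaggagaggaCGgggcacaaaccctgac

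The IGFBP3 window held 36 CpG and the IGFBP4 window 30, against a median of 14 over 35116 promoter windows. Fewer CpG than in the IGFBP3 window were found in 87.3% of all windows, and fewer than in the IGFBP4 window in 77.6%. IGFBP6 and IGFBP5 had 12 and 9 CpG, and the 3 annotated starts of IGFBP2 had 8, 28 and 6. The sequence GTAAACA, searched on both strands as a forkhead factor motif, occurred 1 time in the IGFBP6 window and in 3.42% of all windows. CAAAACA, a second forkhead sequence, and CACGTG, the E-box, were not found in the windows of these members and occurred in 4.92% and 7.26% of all windows. No methylation was measured in these libraries, and CpG content is given as sequence context only.

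The family was made of different members in the untreated lines. In EGI-1 vehicle libraries the summed family level was 275 ± 3.01 CPM (SD, n = 2), a sum over genes of different length that was not divided by length. In HUCCT1 vehicle libraries the sum was 1289.9 ± 89.0 CPM (SD, n = 2). Per kilobase, the order in EGI-1 was IGFBP4 at 109 ± 0.0414, IGFBP6 at 21.2 ± 1.42, IGFBP1 at 2.27 ± 0.664 and IGFBP7 at 1.57 ± 0.0510 CPM per kilobase (mean ± SD, n = 2). The gap between IGFBP1 and IGFBP7 was close to the SD of IGFBP1, and the other neighbours lay further apart than their spread. In HUCCT1 the order was IGFBP7 at 212 ± 5.48, IGFBP4 at 189 ± 33.2, IGFBP3 at 93.7 ± 5.51, IGFBP6 at 18.7 ± 1.53 and IGFBP1 at 6.46 ± 0.512 CPM per kilobase. IGFBP7 and IGFBP4 did not differ beyond their spread there. With the mean transcript length in place of the merged exons, IGFBP3 moved above IGFBP4 in HUCCT1, at 330.2 CPM per kilobase, next to IGFBP7 at 331.

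IGFBP3, the main carrier of IGFs in blood, was the member that separated the lines most. Not a read was counted for IGFBP3 in any of the 8 EGI-1 libraries, whose totals sum to 218406714 counts, while the 2 HUCCT1 vehicle libraries held 12440 and 13480 counts. With a floor of 3 counts per library, which covers counting error only, IGFBP3 was at least 4149-fold higher in HUCCT1. IGFBP7 had 2.95 and 3.09 CPM in EGI-1 vehicle and 417 and 402 CPM in HUCCT1 vehicle, a difference of 7.08 ± 0.133 on the log2 scale (SE, edgeR adjusted p = 2.8e-20). IGFBP7 is known as an abundant product of endothelial and stromal cells as well as of tumour cells. IGFBP1 stood at 2.95 and 4.50 CPM in EGI-1 against 11.2 and 10.0 CPM in HUCCT1 (log2 difference 1.51 ± 0.224, edgeR adjusted p = 8.4e-06). IGFBP4 was at 239.6 and 239.5 CPM against 365 and 469 CPM (log2 difference 0.80 ± 0.115, edgeR adjusted p = 1.5e-05). IGFBP6, with 27.1 and 29.8 CPM against 23.7 and 26.6 CPM, was not called (log2 difference -0.18 ± 0.126, edgeR adjusted p = 0.248). Thus 4 of the 5 members tested were higher in HUCCT1, IGFBP3 among them having passed the filter on low counts through HUCCT1 alone. Over the 25096 genes tested 55.8% were called, 28.5% higher and 27.3% lower in HUCCT1. IGFBP6 was called lower in HUCCT1 with upper-quartile factors (log2 difference -0.30) and with library size alone (-0.44), which moved the median of all genes to -0.13 and -0.27. The line, the culture medium and a tag in the library names differ together and cannot be told apart.

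IGFBP2 and IGFBP5, the paired members on chromosome 2, were at or near the floor. In EGI-1 both genes had 0 counts in all 8 libraries. IGFBP2 had 1 and 1 counts in HUCCT1 vehicle and 12 and 4 counts in HUCCT1 decitabine, and IGFBP5 had 4 and 0 and then 1 and 3 counts. Neither entered a test. DIRC3-AS1, which overlaps IGFBP5, had 13 and 12 counts in HUCCT1 vehicle and 41 and 24 counts in HUCCT1 decitabine. A count of 0 allows up to 3 counts per library, which is 0.0859 to 0.123 CPM in EGI-1, so expression under this level was not detectable.

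In EGI-1, IGFBP7 rose in the order vehicle, decitabine, talazoparib and combination, and the libraries of these arms did not overlap. The libraries held 2.95 and 3.09 CPM in vehicle, 3.62 and 5.01 CPM in decitabine, 5.75 and 5.64 CPM in talazoparib, and 8.62 and 8.66 CPM in the combination. The combination was 2.84-fold above vehicle (log2 fold change 1.51 ± 0.168 SE, edgeR adjusted p = 6.0e-06), and talazoparib 1.88-fold above it (0.91 ± 0.172, edgeR adjusted p = 0.0040). Decitabine alone gave a log2 fold change of 0.52 ± 0.177 that was not called (edgeR adjusted p = 0.294). This fold change ranged from 0.27 to 0.74 when each library in turn was left out. The combination also lay above decitabine by 0.99 ± 0.162 on the log2 scale (edgeR adjusted p = 7.9e-04), while its distance from talazoparib, 0.59 ± 0.157, missed the threshold (edgeR adjusted p = 0.067). That last difference was called in 5 of the alternatives, among them without either decitabine library, with adjusted p values over all alternatives between 0.0135 and 0.371. Even in the combination the gene stood at 474 counts over both libraries. The talazoparib call was lost when either vehicle library was left out, with an adjusted p of up to 0.0944, and the combination call held in all 18 alternatives.

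The genes that share exon sequence with IGFBP7 were read beside it. POLR2B, a subunit of RNA polymerase II, lay between 107 and 121 CPM in the 8 EGI-1 libraries and was not called under any treatment (log2 fold change 0.05 ± 0.0677 in the combination, edgeR adjusted p = 0.636). IGFBP7-AS1 had between 0 and 6 counts per library, too few to be tested.

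IGFBP4, a carrier that mostly restrains IGF action and is cut by the protease PAPPA, showed the same order of arms. Its libraries held 239.6 and 239.5 CPM in vehicle, 276 and 339.6 CPM in decitabine, 352 and 327 CPM in talazoparib, and 413 and 381 CPM in the combination. All treated libraries lay above both vehicle libraries, and decitabine and talazoparib overlapped. IGFBP4 rose 1.65-fold in the combination (log2 fold change 0.72 ± 0.0797, edgeR adjusted p = 1.3e-05) and 1.42-fold under talazoparib (0.51 ± 0.0796, edgeR adjusted p = 0.0015). Decitabine alone came close to the threshold at 0.37 ± 0.0796 (edgeR adjusted p = 0.057) and passed it in DESeq2 (adjusted p = 0.0043), without a filter and without decitabine replicate 1, with adjusted p values between 8.3e-06 and 0.628 over the alternatives. Against decitabine the combination was higher by 0.35 ± 0.0793 on the log2 scale (edgeR adjusted p = 0.012), and against talazoparib by 0.21 ± 0.0791 without a call (edgeR adjusted p = 0.232). The call against vehicle held in all 18 alternatives for the combination. Under talazoparib it was lost without either vehicle library or without talazoparib replicate 1 (adjusted p up to 0.0566), and the call against decitabine was lost without combination replicate 1 or when all 12 libraries were fitted together.

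IGFBP6, which prefers IGF-II over IGF-I, moved the other way. It stood at 27.1 and 29.8 CPM in vehicle, 27.8 and 31.9 CPM in decitabine, 24.5 and 22.7 CPM in talazoparib, and 24.5 and 22.1 CPM in the combination. The libraries with talazoparib, alone or combined, lay below those without it. The combination fell below vehicle by 0.30 ± 0.0977 on the log2 scale (edgeR adjusted p = 0.043) and below decitabine by 0.37 ± 0.0976 (edgeR adjusted p = 0.026), and talazoparib alone gave -0.27 ± 0.0973 (edgeR adjusted p = 0.153). The call against vehicle was lost in 10 of 18 alternatives, DESeq2 among them, with adjusted p values between 0.0120 and 0.327. Among these were the fits without vehicle replicate 1 or 2, combination replicate 1 or 2, or talazoparib replicate 1. The call against decitabine was lost in 7 of 18 alternatives (adjusted p 0.0033 to 0.225), among them without either vehicle library, decitabine replicate 2 or combination replicate 2.

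IGFBP1, the acutely regulated binding protein of the liver, did not change detectably in EGI-1. Its libraries held 2.95 and 4.50 CPM in vehicle, 4.09 and 3.98 CPM in decitabine, 4.69 and 2.49 CPM in talazoparib, and 4.62 and 4.15 CPM in the combination. The range within an arm was as wide as the range between arms. For the combination the 95% interval of the log2 fold change ran from -0.32 to 0.78 (edgeR adjusted p = 0.601).

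**Figure D1:**
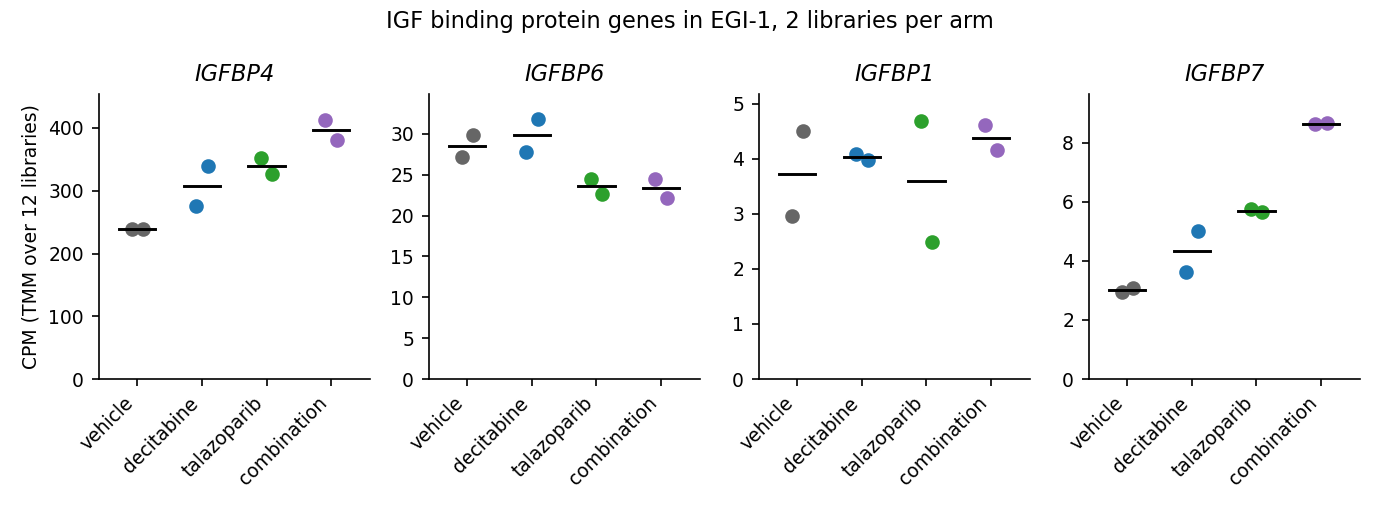
CPM after TMM scaling (y axes, from 0) of the 4 members detected in EGI-1, by treatment arm (x axis); each point is a library and each line the mean of 2 libraries. IGFBP7 climbs from 3.02 CPM in vehicle to 8.64 CPM in the combination and IGFBP4 from 239.6 to 397 CPM, while IGFBP6 is lower in both arms with talazoparib and the IGFBP1 libraries of every treated arm overlap those of vehicle.

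Over the family, 4 of the 7 members passed the filter on low counts in EGI-1. Under the combination 2 of them rose and 1 fell, where 18.7% of the 22406 genes tested were called, 11.1% higher and 7.61% lower. Under talazoparib 2 rose and none fell, with 4.12% of all genes called, 2.83% higher and 1.29% lower. Under decitabine none was called by edgeR, 2 had an unadjusted p under 0.05 and DESeq2 called 1, and 0.544% of all genes were called, 0.518% higher and 0.0268% lower. Between the combination and decitabine, 2 were higher and 1 was lower, with 7.68% of all genes called, 4.42% higher and 3.26% lower. Between the combination and talazoparib none was called by edgeR or DESeq2 and 2 had an unadjusted p under 0.05, with 1.92% of all genes called, 1.36% higher and 0.567% lower. The same counts held between talazoparib and decitabine, with 0.946% of all genes called, 0.353% higher and 0.594% lower. The summed level of the family rose from 275 ± 3.01 CPM in vehicle to 346 ± 48.6 in decitabine, 372 ± 20.1 in talazoparib and 433 ± 24.3 CPM in the combination (mean ± SD, n = 2), a description without a test.

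The combination was also set against the sum of the single-agent effects on the log2 scale. No member departed from that sum by edgeR or DESeq2, and none had an unadjusted p under 0.05, where edgeR called 0.161% of all genes, 0.00893% above the sum and 0.152% below it. The departure was 0.08 ± 0.238 for IGFBP7, with a 95% interval from -0.43 to 0.58, and -0.15 ± 0.112 for IGFBP4, with an interval from -0.39 to 0.09. The EGI-1 comparisons with vehicle share the same 2 vehicle libraries.

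In HUCCT1, decitabine moved IGFBP3 and IGFBP7 in opposite directions. IGFBP3 rose from 410.1 and 446 CPM in vehicle to 1373 and 1482 CPM, a 3.31-fold difference (log2 fold change 1.73 ± 0.106 SE, edgeR adjusted p = 1.5e-12). IGFBP7 fell from 417 and 402 CPM to 192 and 233 CPM, 1.94-fold lower (log2 fold change -0.96 ± 0.112, edgeR adjusted p = 2.1e-07). Neither gene's libraries overlapped between the arms. Both calls held in all 12 alternatives, with log2 fold changes between 1.66 and 1.78 for IGFBP3 and between -1.10 and -0.83 for IGFBP7 when a library was left out. IGFBP7-AS1, which shares 94 bp of exon with IGFBP7, had 88 and 116 counts in vehicle and 39 and 29 counts in decitabine (log2 fold change -1.62 ± 0.278, edgeR adjusted p = 5.4e-05). Strand use in counting is not stated, so some of these counts may be reads of IGFBP7 itself. POLR2B stood at 132 and 123 CPM in vehicle and 128 and 124 CPM in decitabine (log2 fold change -0.03 ± 0.107, edgeR adjusted p = 0.874).

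The other members detected in HUCCT1 were not called. IGFBP4 had 365 and 469 CPM in vehicle and 338 and 395 CPM in decitabine (log2 fold change -0.20 ± 0.118, edgeR adjusted p = 0.220), and was called without vehicle replicate 1 at -0.37. IGFBP6 had 23.7 and 26.6 CPM and then 24.4 and 33.5 CPM (0.19 ± 0.138, edgeR adjusted p = 0.315), and was called without decitabine replicate 1 at 0.40. IGFBP1, next to IGFBP3 on chromosome 7, had 11.2 and 10.0 CPM and then 9.87 and 12.1 CPM, with a 95% interval of the log2 fold change from -0.28 to 0.36. For all of these the libraries of both arms overlapped. Thus 1 of the 5 members tested rose and 1 fell, where 33.5% of the 22479 genes tested were called, 19.6% higher and 13.9% lower.

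**Figure D2:**
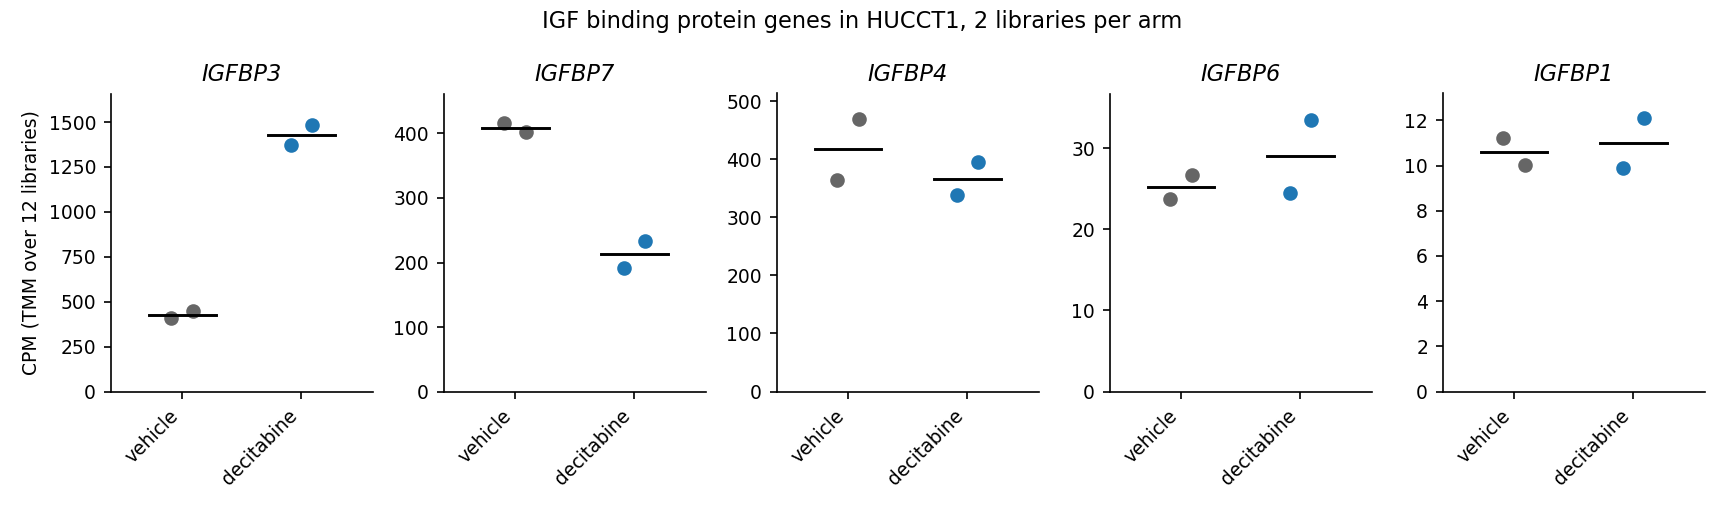
CPM after TMM scaling (y axes, from 0) of the 5 members detected in HUCCT1 under vehicle and decitabine (x axis); each point is a library and each line the mean of 2 libraries. IGFBP3 rises from 428 to 1428 CPM and IGFBP7 falls from 409 to 213 CPM without overlap, while IGFBP4, IGFBP6 and IGFBP1 overlap.

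The summed level, not divided by length, went from 1289.9 ± 89.0 CPM in vehicle to 2047 ± 155 CPM in decitabine (mean ± SD, n = 2). Per kilobase, IGFBP3 stood first after decitabine at 312 CPM per kilobase, followed by IGFBP4, by IGFBP7 at 110.1, by IGFBP6 at 21.5 and by IGFBP1 at 6.69 CPM per kilobase, whereas in vehicle it had stood below IGFBP7 and IGFBP4. Markers of other cell types moved in the same libraries. Of the 8 fibroblast markers 6 were tested, of which 5 rose and LUM fell, and their summed level went from 37.6 to 37.9 CPM in vehicle to 172 to 201 CPM in decitabine. Most of that sum was COL1A1, and COL3A1 had at most 2 counts in a library. COL1A2, PDGFRA and THY1, at 0.033, 0.066 and 0.182 CPM in vehicle, passed the filter on low counts through the decitabine libraries alone. A gene that entered in this way could only be called higher. Of the 7 endothelial markers 6 were tested and 5 rose, from 6.35 to 6.92 CPM to 29.2 to 30.2 CPM in sum, and EMCN did not exceed 1 count in a vehicle library. CDH5, KDR and TEK, at 0.281, 0.066 and 0.165 CPM in vehicle, also passed the filter through the decitabine libraries alone. Biliary and epithelial markers summed to 14819 to 16628 CPM in vehicle and 9522 to 10883 CPM in decitabine, with 3 of 10 called higher and 5 lower. Hepatocyte markers went from 52.9 to 77.9 CPM to 97.1 to 106 CPM with the 1 tested called, SERPINA1, and leukocyte markers from 3.03 to 3.31 CPM to 4.97 to 5.20 CPM with 1 of 2 called, CD3E. CFTR, among the biliary markers called higher, and CD3E also passed the filter through the decitabine libraries alone. Over all genes tested 33.5% were called, 19.6% higher and 13.9% lower, and the marker counts are a description only. The part of these genes in the IGFBP3 and IGFBP7 values was not tested.

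Whether decitabine acted alike in the lines was tested with an interaction term over the 12 libraries. IGFBP7 differed by -1.45 ± 0.187 on the log2 scale, HUCCT1 minus EGI-1 (edgeR adjusted p = 9.8e-06), with a fall in HUCCT1 and values above vehicle in both EGI-1 libraries. IGFBP4 differed by -0.55 ± 0.161 (edgeR adjusted p = 0.029), a call that was lost without either EGI-1 vehicle library, EGI-1 decitabine replicate 2, HUCCT1 vehicle replicate 2 or HUCCT1 decitabine replicate 1 (adjusted p up to 0.120). IGFBP6 and IGFBP1 were not called, with differences of 0.13 ± 0.178 and -0.07 ± 0.315. For IGFBP3, which had 0 counts in EGI-1 with and without decitabine, no difference of effects could be estimated. So 2 of the 4 members with an estimable difference differed, both lower, where 15.9% of all genes tested were called, 8.74% higher and 7.2% lower. The dose was 0.5 μM in EGI-1 and 1 μM in HUCCT1, so line, dose and the tag in the library names cannot be told apart.

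**Figure D3:**
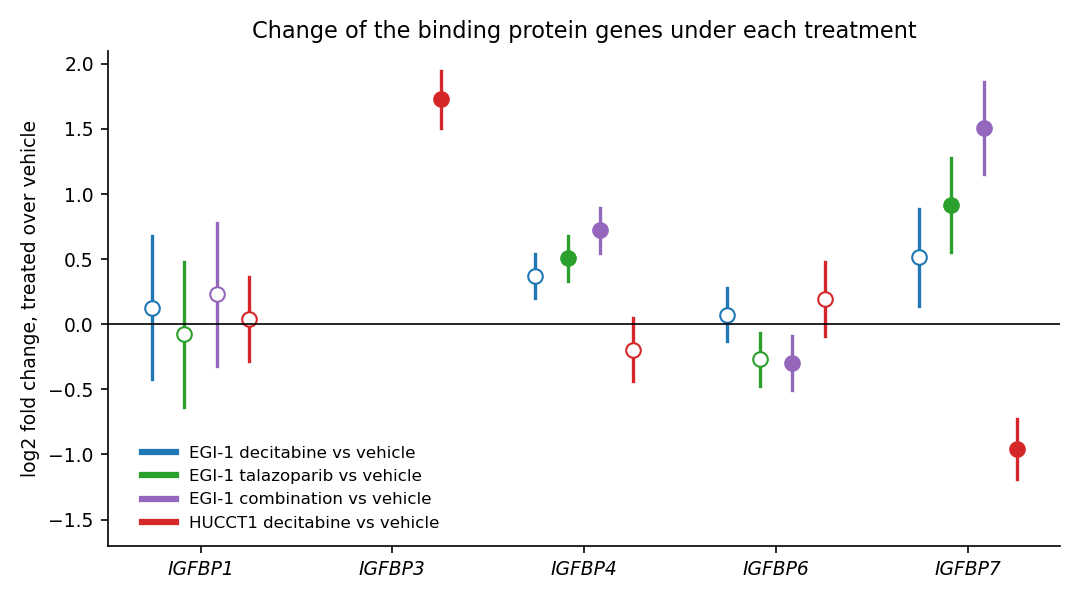
Log2 fold change over vehicle (y axis) of the tested members (x axis) under each treatment; points are edgeR estimates, lines 95% intervals, and filled points adjusted p under 0.05. IGFBP4 and IGFBP7 lie above 0 under talazoparib and the combination in EGI-1, and in HUCCT1 decitabine gave 1.73 for IGFBP3 and -0.96 for IGFBP7. IGFBP3 has no EGI-1 points because all 8 libraries were at 0.

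The ligands that these proteins carry were nearly absent. IGF1 had at most 5 counts and INS, the insulin gene, at most 1 count in any library. IGF2 had 0 counts in all 8 EGI-1 libraries and in both HUCCT1 vehicle libraries, and 49 and 25 counts after decitabine, higher by at least 3.59 on the log2 scale against a floor of 3 counts per library. In HUCCT1, IGF2 thus passed the filter on low counts through the decitabine libraries alone and could only be called higher. Its exons share 1460 bp with the readthrough gene INS-IGF2 on the same strand, so the source of these reads is uncertain.

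The receptors were present. IGF1R, the signalling receptor for both IGFs, stood at 105 and 96.9 CPM in EGI-1 vehicle and 85.3 and 81.8 CPM in the combination, a fall of 0.28 on the log2 scale (SE 0.0647, edgeR adjusted p = 0.0056). In HUCCT1 it was at 106 and 113 CPM and then 111 and 102 CPM without a call. IGF2R, which clears IGF-II, was not called in either line, with means of 278 CPM in EGI-1 vehicle and 305 CPM in the combination, and of 241 CPM in HUCCT1 vehicle and 222 CPM with decitabine. INSR, the insulin receptor, was at 48.9 and 51.6 CPM in EGI-1 vehicle but at 3.30 and 2.68 CPM in HUCCT1 vehicle (log2 difference -4.07 ± 0.146, edgeR adjusted p = 8.3e-16), and fell further there under decitabine to 1.69 and 0.879 CPM (-1.22 ± 0.298, edgeR adjusted p = 0.0023). Of the 7 ligand and receptor genes listed, 4 were tested in EGI-1, where INSRR, an insulin receptor relative, was called higher. Its mean was 0.447 CPM in the combination, against 0.103 CPM in vehicle, 0.121 in decitabine and 0.153 in talazoparib. INSRR thus passed the filter on low counts through the combination libraries alone and could only be called higher. The IGF1R call was lost without vehicle replicate 1 or combination replicate 2, and the INSRR call in 11 of 16 alternatives.

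Proteases that cut IGF binding proteins, and their inhibitors, changed most in HUCCT1. STC2 encodes stanniocalcin-2 and PAPPA the pappalysin that it inhibits, an enzyme that releases IGF by cutting IGFBP4 and IGFBP5. STC2 rose in HUCCT1 from 102 and 99 counts to 8594 and 8043 counts under decitabine (log2 fold change 6.34 ± 0.143, edgeR adjusted p = 5.5e-21). PAPPA rose there from 0.198 and 0.231 CPM to 9.72 and 9.94 CPM (5.48 ± 0.285, edgeR adjusted p = 5.9e-14). STC1, a second stanniocalcin that inhibits PAPPA, rose from 262 and 204 to 741 and 639 counts (1.53 ± 0.150, edgeR adjusted p = 1.1e-08). HTRA1, a serine protease that cleaves IGFBP5, fell from 307 and 360 to 149 and 105 counts (-1.43 ± 0.183, edgeR adjusted p = 8.6e-07), and PAPPA2 had at most 7 counts in any library. In HUCCT1, 5 of the 11 genes tested in this list of 14 rose and 4 fell, where 19.6% of all genes were called higher and 13.9% lower, with a median log2 fold change of 0.21 against 0.00 over all genes. Among the rises, PAPPA passed the filter on low counts through the decitabine libraries alone and could only be called higher.

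In EGI-1 the same proteases and inhibitors moved in part differently. STC1 rose in the combination from 121 and 113 to 320 and 393 counts (log2 fold change 1.69 ± 0.139, edgeR adjusted p = 1.9e-07), and under talazoparib to 157 and 268 counts (0.82 ± 0.143, edgeR adjusted p = 0.0022). STC2 was already high, at 86.1 and 88.0 CPM in vehicle, and reached 104 and 109 CPM in the combination (0.28 ± 0.0661, edgeR adjusted p = 0.0063), a call lost without either vehicle library or combination replicate 2. PAPPA fell from 25 and 25 to 7 and 10 counts (-1.47 ± 0.413, edgeR adjusted p = 0.019), a call lost in DESeq2 and without any 1 of the vehicle or combination libraries (adjusted p up to 0.107). CTSB, the lysosomal protease cathepsin B, rose by 0.56 ± 0.0546 and MMP7, matrilysin, fell by 0.87 on the log2 scale (SE 0.115). In all, 3 of the 11 genes tested rose and 2 fell, where 11.1% of all genes were called higher and 7.61% lower. The decitabine effect differed between the lines for STC2 (6.08 ± 0.125, HUCCT1 minus EGI-1, edgeR adjusted p = 2.1e-18), PAPPA (6.16 ± 0.439, edgeR adjusted p = 1.8e-09), HTRA1 (-1.23 ± 0.246, edgeR adjusted p = 0.0012) and STC1 (0.90 ± 0.205, edgeR adjusted p = 0.0041).

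**Figure D4:**
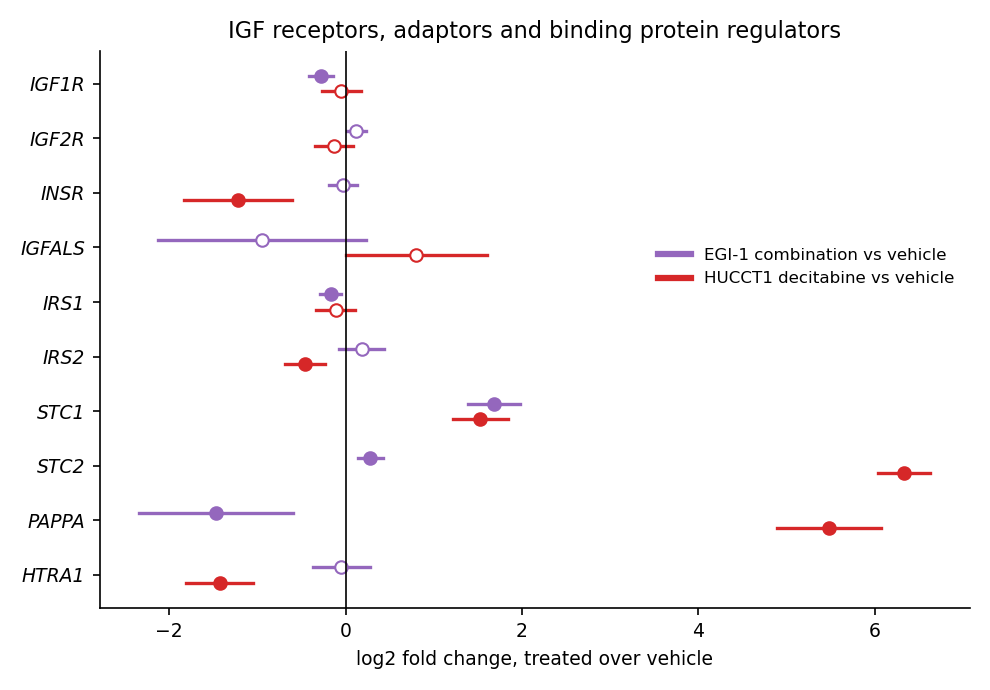
Log2 fold change over vehicle (x axis) of IGF receptors, adaptors and regulators of the binding proteins (y axis) in the EGI-1 combination and in HUCCT1 with decitabine; points are edgeR estimates, lines 95% intervals, filled points adjusted p under 0.05. STC1 is above 0 in both, whereas STC2 (6.34) and PAPPA (5.48) stand far to the right in HUCCT1 and PAPPA is at -1.47 in EGI-1.

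Proteins that bind the binding proteins, at the cell surface, in the nucleus or in blood, were read as a list of 10. In the EGI-1 combination 4 of the 9 tested rose and 2 fell, where 18.7% of all genes were called, and in HUCCT1 2 of 10 rose and 3 fell, where 33.5% of all genes were called. ITGA5, a subunit of the fibronectin receptor, rose in both lines, from 50.4 and 53.6 to 92.8 and 96.3 CPM in the EGI-1 combination (0.86 ± 0.0707, edgeR adjusted p = 2.0e-07) and from 43.7 and 50.7 to 79.2 and 85.3 CPM in HUCCT1 (0.79 ± 0.114, edgeR adjusted p = 4.7e-06). CAV1, the caveolae protein to which IGFBP3 binds, fell by 0.58 on the log2 scale in EGI-1 and by 1.10 in HUCCT1. LRP1, a receptor for IGFBP3, rose by 0.86 in the EGI-1 combination, and ITGB1 fell by 0.67 in HUCCT1. CD93, a receptor for IGFBP7, had 0 counts in HUCCT1 vehicle and 28 and 22 counts with decitabine, at least 8.18-fold higher, and at most 8 counts in EGI-1. In HUCCT1, CD93 thus passed the filter on low counts through the decitabine libraries alone and could only be called higher. ITGB3, an integrin subunit, rose by 1.63 ± 0.345 in the EGI-1 combination, a call lost without vehicle replicate 2. RXRA, a nuclear receptor that binds IGFBP3, fell by 0.23 in EGI-1 and by 0.29 in HUCCT1, calls that were lost in 11 of 18 and 8 of 12 alternatives. IGFALS, the subunit that joins IGFBP3 and IGF in blood, had 13 and 20 counts in EGI-1 vehicle and 9 and 7 in the combination, and 18 and 21 counts in HUCCT1 vehicle and 41 and 29 with decitabine, without a call (edgeR adjusted p = 0.269 and 0.119).

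Signalling genes downstream of the receptor were read as a list of 23, of which 22 were tested in each line. In the EGI-1 combination 3 rose and 2 fell, where 18.7% of all genes were called, and in HUCCT1 1 rose and 1 fell, where 33.5% of all genes were called. FOXO1, the transcription factor that insulin and IGF signalling restrains and that acts on the IGFBP1 promoter, rose in both, by 0.45 ± 0.0950 in EGI-1 (edgeR adjusted p = 0.0028, lost without vehicle replicate 1) and by 0.86 ± 0.115 in HUCCT1 (edgeR adjusted p = 1.6e-06). Of the adaptors, IRS2 fell by 0.46 on the log2 scale in HUCCT1 (SE 0.109, edgeR adjusted p = 0.0016), and IRS1 fell by 0.17 in the EGI-1 combination (SE 0.0560, edgeR adjusted p = 0.044), a call lost in 11 of 18 alternatives. Among genes known as FOXO targets, 3 of 15 tested rose and 3 fell in the EGI-1 combination, and 4 of 14 rose and 3 fell in HUCCT1, where 18.7% and 33.5% of all genes were called. CITED2, at 0.73 ± 0.0992, was the largest rise called in this list in EGI-1, and BNIP3, a mitophagy receptor, at 1.96 ± 0.175, in HUCCT1. BNIP3 fell by 0.64 in the EGI-1 combination, a call lost without vehicle replicate 2 or combination replicate 2. FBXO32, a muscle ubiquitin ligase, rose by 1.44 ± 0.114 and TXNIP by 0.60 ± 0.111 in HUCCT1, and RICTOR, a subunit of mTOR complex 2, fell by 0.52 there (SE 0.118).

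Genes outside the family whose proteins carry the IGFBP-type domain were read as a neighbour group. In HUCCT1, 5 of the 9 tested rose and none fell, where 19.6% of all genes were called higher and 13.9% lower, with a median log2 fold change of 1.11 against 0.00 over all genes. CCN2, a matricellular growth factor, rose from 54.1 and 60.4 to 114 and 135 CPM (1.11 ± 0.116, edgeR adjusted p = 3.0e-08). CCN5 went from 4 and 8 to 57 and 69 counts and ESM1, endocan, from 4 and 3 to 42 and 38 counts, both at low levels. CCN6 averaged 0.0165 CPM in vehicle and 0.375 CPM with decitabine. CCN5, ESM1 and CCN6 passed the filter on low counts through the decitabine libraries alone and could only be called higher. The count of rises and the median include them and are a description only. In the EGI-1 combination, CCN1, a matricellular protein, rose from 357 and 348 to 593 and 601 CPM (0.75 ± 0.0551, edgeR adjusted p = 4.2e-08). CCN6 rose from 19 and 13 to 35 and 39 counts, a call lost without any vehicle or combination library, and CCN2 fell from 28.5 and 25.5 to 21.0 and 19.0 CPM (-0.45 ± 0.109, edgeR adjusted p = 0.0076), a call lost without vehicle replicate 1 or combination replicate 2. Thus 2 of 7 tested rose and 1 fell in EGI-1, where 18.7% of all genes were called.

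Over the 8 EGI-1 libraries, IGFBP4 and IGFBP7 had a Pearson r of 0.97, and IGFBP6 had an r of -0.54 with IGFBP4 and -0.67 with IGFBP7. These values describe libraries of 4 arms that share treatments, and no test was made of them. Among 13708 genes, the profiles most like IGFBP4 were those of ETV4 and TGFB1I1, each with an r of 0.996. USP11 and STIM1 were nearest to IGFBP7, each with an r of 0.996, ALDH3A1 and MUC5B to IGFBP6, with 0.989 and 0.981, and LCMT1-AS2 and ZNF691 to IGFBP1, with 0.932 and 0.883.

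In the EGI-1 combination, markers of other cell types also moved with the members. Endothelial markers summed to 20.8 to 22.6 CPM in vehicle and to 30.6 to 31.2 CPM in the combination, with 2 of 4 tested called higher, VWF and CDH5, the CDH5 call being lost in 6 of 18 alternatives, and EMCN at 0 in both arms. Fibroblast markers went from 29.1 to 30.7 CPM to 43.3 to 50.4 CPM, with 1 of 2 tested called, COL1A1, and DCN and LUM at 0. Leukocyte markers were at 3.49 to 4.37 CPM in vehicle and at 3.88 and 23.5 CPM in the combination libraries, with 1 of 2 tested called, LYZ. The 2 tested, LYZ and CD14, averaged 2.16 and 2.11 CPM in the combination. Most of the 23.5 CPM of 1 library thus lay in listed markers that were not tested. Biliary and epithelial markers summed to 8341 to 8371 CPM in vehicle and 9204 to 9305 CPM in the combination, with 3 of 9 tested called higher. Hepatocyte markers were at 21.1 to 25.6 CPM and 21.7 to 25.9 CPM, with no call in 2 tested. Over all genes tested 18.7% were called, 11.1% higher and 7.61% lower. The part of these markers in the rise of IGFBP4 and IGFBP7 was not tested.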

How the data were processed

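Total RNA of 12 libraries was sequenced. The authors deposited raw counts for each gene, under versioned Ensembl identifiers. The submitters' processing notes list fastp, Trim Galore, HISAT2, featureCounts and GRCh38, whereas the study's methods name fastp, STAR and RSEM for EGI-1. Strand use, annotation and the handling of reads matching several genes are not given in the sources used here, so overlapping genes may share reads.

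Symbols, positions and exon lengths came from GENCODE 44, which gave a symbol to 60437 of 60651 identifiers. Promoter windows came from RefSeq (GRCh38.p14). No protein sequence was used here. Counts were fitted in R 4.3.3 by edgeR 4.0.16 (filterByExpr by group, TMM, robust quasi-likelihood fit, Benjamini-Hochberg adjustment, threshold 0.05). The 8 EGI-1 libraries were fitted together (22406 genes), the 4 HUCCT1 libraries apart (22479 genes), and all 12 for comparisons between lines (25096 genes). The scripts were tested on simulated counts. A gene at 0 throughout a group was set to 3 counts per library, and its fold is a lower bound. Replicates differed beyond counting noise, with a chi-square per gene between 2.73 and 12.6.

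The members and lists were chosen with earlier results of these data known. All 7 members were named, with a set of 14 ligands, receptors, adaptors and binding protein regulators, and up to 3 largest rises and falls called per list in the EGI-1 combination and in HUCCT1. POLR2B, IGFBP7-AS1 and DIRC3-AS1 were added for their overlap. Alternatives were upper-quartile factors, library size alone, DESeq2 1.42.0, no filter, at least 1 CPM in 2 libraries, no robust estimation, replicate blocks, other sample sets, mean transcript length and leaving out each library.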

Additional observations from a re-analysis of the deposited data

Results flagged for a closer look

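The decitabine effect on the binding protein genes differed between HUCCT1 and EGI-1 by the interaction test of edgeR for IGFBP7 (log2 difference of effects -1.45, adjusted p = 9.8e-06) and IGFBP4 (-0.55, adjusted p = 0.029). In HUCCT1 both libraries with decitabine lay below both vehicle libraries for IGFBP7, and in EGI-1 both lay above them. Among the partner genes, the same test separated the lines for PAPPA (6.16, adjusted p = 1.8e-09), STC2 (6.08, adjusted p = 2.1e-18) and STC1 (0.90, adjusted p = 0.0041), whose log2 fold changes were higher in HUCCT1. It also separated INSR (-1.24, adjusted p = 9.7e-04), HTRA1 (-1.23, adjusted p = 0.0012) and IRS2 (-0.46, adjusted p = 0.038), whose log2 fold changes were lower in HUCCT1. The doses were 0.5 μM in EGI-1 and 1 μM in HUCCT1, so line, dose and the tag in the library names cannot be told apart. For this comparison, the alternatives are reported here for the binding protein genes only. With 2 libraries in each group, single libraries were not tested as outliers.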

How the results depend on the processing

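The calls of IGFBP3 and IGFBP7 in HUCCT1, of IGFBP4 and IGFBP7 in the EGI-1 combination, of IGFBP1, IGFBP4 and IGFBP7 between the lines and of the IGFBP7 line difference in decitabine effect held in every alternative run. With 2 libraries per group, the IGFBP6 calls for the combination were lost in 10 of 18 alternatives against vehicle and 7 of 18 against decitabine, and the 176 to 474 counts of IGFBP7 and 202 to 239 of IGFBP1 per EGI-1 arm limit their precision. The cause was not tested where a setting changed a count.

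Members called rose from 0 to 1 for decitabine against vehicle in EGI-1 with DESeq2 or without a filter. They rose from 0 to 2 for the combination against talazoparib without a filter or with only the groups compared, and to 1 with all 12 libraries fitted together. They fell from 3 to 1 for the combination against decitabine with all 12 libraries, and rose from 0 to 1 for talazoparib against decitabine without a filter. With mean transcript length, levels moved to 7.10 CPM per kilobase for IGFBP1, 330.2 for IGFBP3, 30.3 for IGFBP6 and 331 for IGFBP7 in HUCCT1 vehicle, and to 34.3 for IGFBP6 and 2.45 for IGFBP7 in EGI-1 vehicle. IGF1R in HUCCT1 under decitabine turned to 0.025 on the log2 scale with library size alone. Library size alone moved the median of all genes between the lines to -0.27, and upper-quartile factors to -0.13. With upper-quartile factors the EGI-1 combination split of all genes went from 2489 higher and 1705 lower to 2177 and 2244. Library size alone moved the split between the lines from 7155 and 6848 to 5103 and 9375, and that of the difference in decitabine effect from 2193 and 1807 to 2595 and 1278. Without a filter, all genes called (higher and lower) went from 116 and 6 to 299 and 36 for decitabine, from 304 and 127 to 634 and 263 for the combination against talazoparib, from 79 and 133 to 171 and 273 for talazoparib against decitabine, and from 2 and 34 to 14 and 57 beyond the sum, and the difference in decitabine effect went to 2020 and 2505. With only the groups compared, the counts were 41 and 2 for decitabine, 1133 and 718 against 635 and 288 for talazoparib, 606 and 357 against 990 and 730 for the combination against decitabine, 502 and 198 for it against talazoparib, and 16 and 63 for talazoparib against decitabine.

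Leaving out each library in turn, 0 to 2 members were called under EGI-1 decitabine, 0 to 2 under talazoparib and 2 to 3 in the combination, each against vehicle. The number was 2 to 3 for the combination against decitabine, 0 to 2 against talazoparib, 0 to 1 for talazoparib against decitabine, and 2 to 3 in HUCCT1. It was 4 throughout between the lines and 1 to 2 for the difference in decitabine effect. The direction of uncalled log2 fold changes turned in some of these fits. For IGFBP1 in EGI-1 the ranges were -0.15 to 0.46 (decitabine), -0.58 to 0.34 (talazoparib), -0.049 to 0.56 (combination), -0.11 to 0.81 (combination against talazoparib), -0.70 to 0.21 (talazoparib against decitabine) and -0.23 to 0.68 (beyond the sum). For IGFBP1 they were -0.11 to 0.17 in HUCCT1 and -0.41 to 0.19 for the line difference. For IGFBP6 they were -0.028 to 0.17 (decitabine), -0.10 to 0.053 (combination against talazoparib) and -0.19 to 0.0062 (beyond the sum) in EGI-1, -0.050 to 0.40 in HUCCT1 and -0.12 to 0.34 for the line difference. For IGFBP4 they were -0.011 to 0.29 (talazoparib against decitabine) and -0.29 to 0.011 (beyond the sum), and for IGFBP7 -0.14 to 0.33 (beyond the sum). In the EGI-1 combination HTRA1 ranged from -0.10 to 0.0076 and INSR from -0.11 to 0.040, and IGF1R in HUCCT1 from -0.12 to 0.014.

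Neither the replicate numbers of the titles nor the 2 series of library names paired the EGI-1 libraries. The correlations of deviations matched by either ran from -0.68 to 0.52. HUCCT1 offered 1 pair, with 0.59. With the title numbers as a replicate block, 2 members were called for the combination against vehicle and 2 against decitabine, since IGFBP6 was not called, 3 in HUCCT1 and 5 between the lines. In HUCCT1 the added call was IGFBP4, and between the lines IGFBP6. A block by the 2 series of library names gave 2, 3 and 5 for the EGI-1 pair of comparisons and the lines. The blocks changed no other call of a member that the report gives, and the numbers of members called under decitabine, talazoparib and beyond the sum stood at 0, 2 and 0. Over all genes, the title block left 56 and 4 calls for decitabine, 172 and 77 for the combination against talazoparib and 37 and 82 for talazoparib against decitabine, and the library-name block 71 and 4 for decitabine.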
